A study of Mus musculus with 6 samples.

Results

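The genes described here are interferon-β and the antiviral genes that interferons switch on, as measured in neutrophils of cGAS knockout mice with and without LPS. The set holds 52 genes, *Ifnb1* and 51 interferon-stimulated genes, named by symbol, and all 52 were found among the 38739 genes of the deposited table. Each of the 52 exceeded 0 in 1 sample or more, as did 23049 genes of the whole table. All samples came from mice of the C57B/L6 strain that carry the cGAS knockout, so the untreated controls lack the sensor too and no wild-type sample was among those analysed. Neutrophils were washed from the peritoneum after thioglycolate had drawn them there, and were kept for 2 h in medium with serum (untreated, n = 3) or in the same medium with LPS (n = 3), the outer membrane lipid of Gram-negative bacteria. The sample labels give the LPS dose as 500 ng/mL. The dose in the methods of the study differs from that in the labels, so the dose is uncertain. *Cgas* itself, which encodes the knocked-out DNA sensor, had values of 0.203, 0.307 and 0.180 without LPS and of 0.184, 0.0713 and 0.0286 with it. Neither the labels nor the methods say whether the 3 samples of a group came from separate mice or cultures, so the p values measure only the spread between these samples, which may be technical.

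LPS is sensed by TLR4, which signals through the adaptor TRIF and the kinase TBK1 to the transcription factor IRF3 and so to the gene of interferon-β. Secreted interferon-β binds its receptor on the same and on neighbouring cells, its kinases activate transcription factors, and these bind the interferon-stimulated response element (ISRE) in front of many genes. Their products degrade viral RNA, tag proteins with the ubiquitin-like ISG15, sense foreign DNA and restrain the pathway again. cGAS makes the messenger cGAMP on meeting cytosolic DNA and feeds into the same kinase, whereas the route from TLR4 does not need it.

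The promoter stretches of 10 of the genes are shown because 9 of them carry this response element and *Ifnb1* carries a site for NF-κB, and because neighbouring genes of the OAS and PYHIN families share letters around the element. Sequences are from the RefSeq promoter set on GRCm38.p6, 5′ to 3′ on the strand of the gene, and capitals mark the ISRE core (GAAA, any 2 bases, GAAA) or, in *Ifnb1*, the NF-κB site (GGGA, any 2 bases, TTCC). Overlapping matches run together as 1 stretch of capitals.
*Ifnb1* (chr4:88522865-88522934, minus strand, bases -140 to -71 from the start): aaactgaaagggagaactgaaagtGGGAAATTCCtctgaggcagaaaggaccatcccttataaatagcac
*Isg15* (chr4:156200864-156200913, minus strand, -95 to -46): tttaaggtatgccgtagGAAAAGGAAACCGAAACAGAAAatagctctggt
*Oas1a* (chr5:120907526-120907585, minus strand, -60 to -1): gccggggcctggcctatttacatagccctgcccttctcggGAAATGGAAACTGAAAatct
*Oas1g* (chr5:120887614-120887673, minus strand, -60 to -1): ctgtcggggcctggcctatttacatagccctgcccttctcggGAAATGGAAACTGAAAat
*Ifi205* (chr1:174031856-174031905, minus strand, -150 to -101): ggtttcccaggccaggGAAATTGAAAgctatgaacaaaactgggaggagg
*Ifi211* (chr1:173913057-173913106, minus strand, -60 to -11): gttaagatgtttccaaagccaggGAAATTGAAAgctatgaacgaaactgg
*Ifi207* (chr1:173741820-173741869, minus strand, -60 to -11): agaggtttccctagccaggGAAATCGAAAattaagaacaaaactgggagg
*Ifi203* (chr1:173942503-173942552, minus strand, -60 to -11): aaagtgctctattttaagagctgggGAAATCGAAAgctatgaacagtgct
*Mndal* (chr1:173880198-173880247, minus strand, -60 to -11): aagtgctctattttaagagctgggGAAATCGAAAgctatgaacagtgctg
*Ifi213* (chr1:173599318-173599367, minus strand, -95 to -46): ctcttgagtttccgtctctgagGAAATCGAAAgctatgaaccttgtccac
Promoters of 250 bases before to 50 after the start were held for 46 of the 52 genes. The ISRE core, searched on both strands like the other motifs, was found in 20 of these 46 genes and in 22 of their 63 promoters, against 3.44% of all 32851 promoters. The gamma-activated site TTCNNNGAA was found in 6 genes and in 6 of the 63 promoters, against 8.3% of all promoters. It overlapped an ISRE match in *Bst2* and *Shisa5*. The NF-κB site was found in 3 genes, *Ifnb1*, *Isg20* and *Ifi209*, and in 3 of the 63 promoters, against 1.47% of all promoters.

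The deposited values behave as TPM (transcript abundances relative to a fixed total), taken as a mean across the transcripts of each gene and rescaled per sample, and are called scaled TPM here. Read counts cannot be recovered from them, so the depth is unknown, and levels are compared between samples of 1 gene and not between genes. The share of the summed values that fell on protein-coding genes was 21.6 to 29.0% without LPS and 50.6 to 60% with it. Values above 0 were listed for 15419 to 15800 genes without LPS and 16148 to 19191 with it. Among the 6004 protein-coding genes with a mean of at least 1, the median log2 fold change was 0.37 as deposited and 0.02 when each sample was instead divided by its protein-coding sum. Changes of the 52 genes are therefore given beside this shift.

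*S100a9*, a calcium-binding protein abundant in neutrophils, was high in every sample, between 5233 and 28393 scaled TPM. The other neutrophil markers varied, with *Ltf* at 2.27 to 9.18, and moved in both directions with LPS. *Cxcr2* was at 39.4, 120 and 100 without LPS and at 7.10, 23.6 and 8.69 with it. *Lcn2* was at 77.0, 1284 and 94.7 and then at 879, 4887 and 1190. *S100a8* and *S100a9* made up most of the neutrophil sum in every sample. Summed over the 12 of 14 neutrophil markers in the table, the values reached 9939, 28504 and 9741 without LPS and 18262, 54649 and 16076 with it. Markers of other cells were also present. The 6 of 8 B cell markers in the table summed to 1093, 281 and 1029 in the untreated and 796, 262 and 726 in the LPS samples, with *Ighm*, the heavy chain of immunoglobulin M, at 544, 138 and 622 and then 559, 195 and 501. In both groups replicate 2 thus had the highest neutrophil and the lowest B cell sum. Single markers could differ, as *Csf3r* was highest in untreated replicate 3, at 525. The B cell marker *Cd79b* was at 61.3, 111 and 175 without LPS, so untreated replicate 2 was not its lowest. The 12 of 16 macrophage and monocyte markers summed to 1166 to 1552 in the untreated and 875 to 1146 in the LPS samples. Most of this sum was *Lyz2*, at 872, 1367 and 923 and then 642, 695 and 532. The single markers moved in both directions, as *Cd68* was at 179, 157 and 162 and then at 303, 381 and 230. T and NK cell markers (8 of 9 in the table) summed to 15.8 to 19.3 and 7.96 to 19.6, mast cell markers (3 of 7) to 25.5 to 83.9 and 82.4 to 126, and dendritic cell markers (8 of 10, *Bst2* left out as it is one of the 52 genes) to 16.4 to 43.2 and 36.5 to 68.7. *Siglech*, which marks plasmacytoid dendritic cells, the specialised producers of interferon, stayed at or below 0.144 scaled TPM in every sample. Erythroid markers were highest in replicate 3 of both groups, at 1868 untreated and 1823 with LPS, against 15.0 to 220 in the other 4 samples. In bulk RNA, fewer cells of a type and less RNA per cell cannot be told apart.

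Across the 52 genes, values after LPS leaned to the higher side, with a wide spread between genes and samples. By sign, 37 of 52 (71.2%) were higher with LPS, against 52.9% of the 23049 genes tested and 64.7% of the 6004 protein-coding genes with a mean of at least 1. The median log2 fold change of the 52 genes was 0.60, and 0.58 over the 51 without *Ifnb1*, beside 0.01 for all genes tested and 0.37 for the protein-coding genes. With samples divided by their protein-coding sum, the median of the 52 genes was 0.18 beside 0.02 for the protein-coding genes, and 33 of 52 were higher.

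A gene was called changed at an unadjusted p under 0.01 together with a log2 fold change beyond 2, the limits the study used. *Xaf1* alone, 1 of 52 (1.92%), was called higher, where 1.69% of all genes tested and 4.91% of the protein-coding genes were. None of the 52 was called lower, beside 1.31% and 0.75%. At a Benjamini-Hochberg adjusted p under 0.05 by limma, 0 of 52 were higher and 0 lower, against 0.894% and 0.946% of all genes tested and 2.5% and 0.716% of the protein-coding genes. At an unadjusted p under 0.05, 10 of 52 (19.2%) were higher and 2 (3.85%) lower, against 10.3% and 6.66% of all genes tested and 20.5% and 7.61% of the protein-coding genes. The 10 were *Oas1g*, *Oas2*, *Oasl2*, *Isg15*, *Ube2l6*, *Usp18*, *Isg20*, *Ifi205*, *Trafd1* and *Xaf1*, and the 2 were *Uba7* and *Shisa5*. With protein-coding sums, 2 were higher (*Ifi205* and *Xaf1*) and the same 2 lower, 3.85% each, beside 11.8% and 11.5% of the protein-coding genes. The lowest LPS sample exceeded the highest untreated sample in 12 of 52 genes (23.1%), beside 13.1% of all genes tested and 24.5% of the protein-coding genes. The reverse held in *Uba7* and *Shisa5*, 3.85% of the genes beside 9.75% and 10.1%. The higher shares at an unadjusted p under 0.05 and without overlap stood near those of the protein-coding genes, and the other shares of the set were below them.

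**Figure D1:**
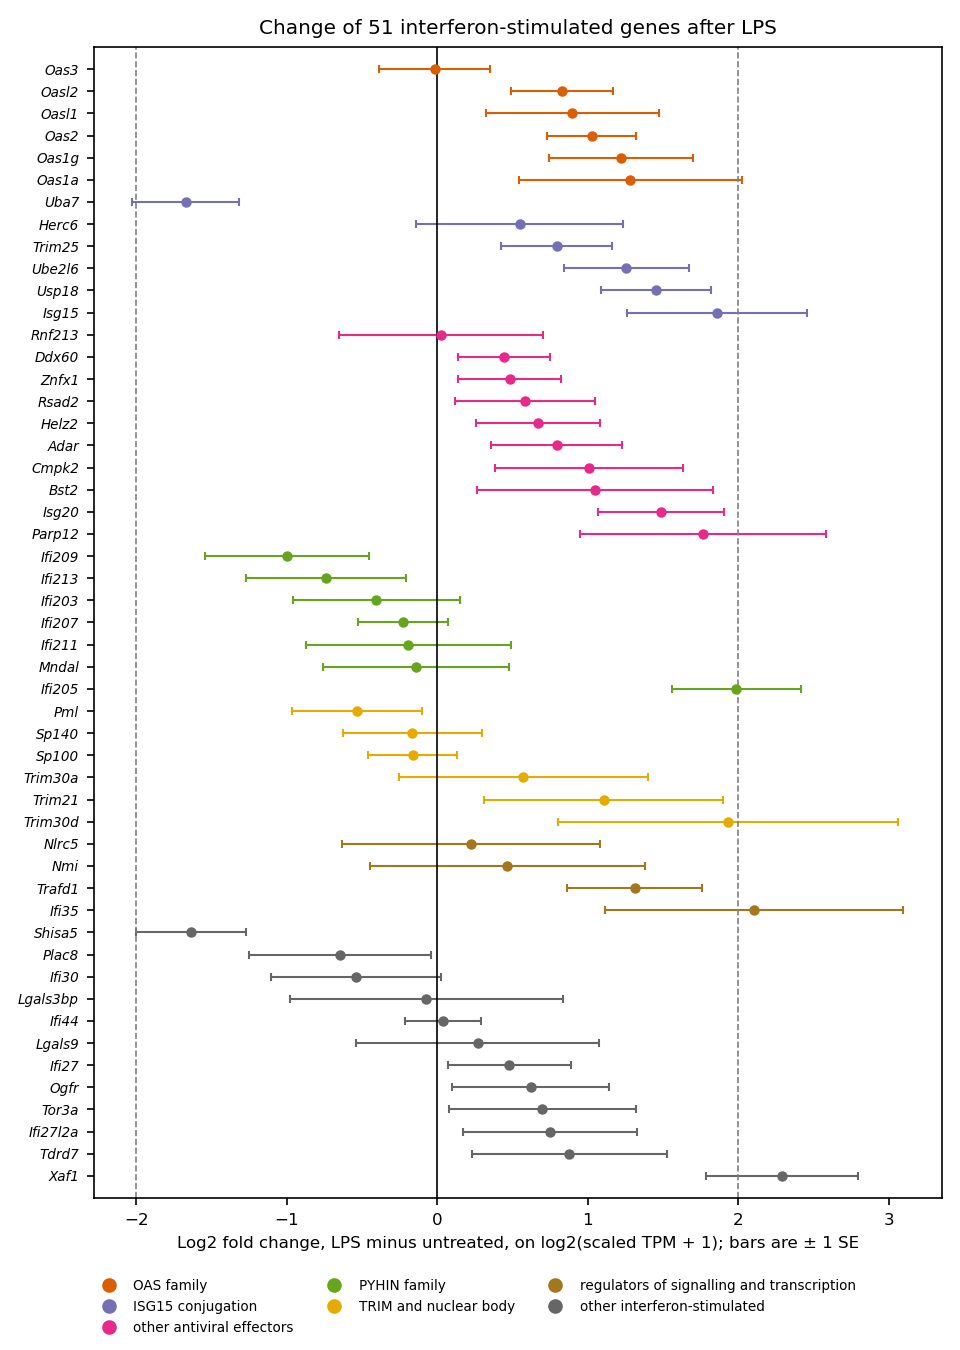
Log2 fold change of LPS against untreated samples (x axis, on log2(scaled TPM + 1), 3 samples per group) for 51 genes, grouped and coloured by role. Points are fitted changes, bars are ± 1 SE, dashed lines mark a change of 2 in either direction, and *Ifnb1* is left out because its untreated values are listed at 0. The OAS, ISG15 and regulator genes lie mostly right of 0, 6 of 7 PYHIN genes lie left of it, and *Xaf1* at 2.29 and *Ifi35* at 2.11 pass the right dashed line.

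*Ifnb1* (ENSMUSG00000048806, chromosome 4, 88440262 to 88441011 on GRCm39, minus strand), the gene of interferon-β itself, was listed at 0 in all 3 untreated samples. With LPS it was listed at 2.15 in replicate 1, 0 in replicate 2 and 0.955 in replicate 3. The groups overlap, because LPS replicate 2 was also at 0, and the adjusted p was 0.347 (limma). Set against 1176 genes with 1 transcript of similar length, the values 2.15 and 0.955 lay at the 71.1 and 58.5 percentile of those above 0 in the same sample. The lowest values above 0 of such genes, taken as the 5th percentile, were 0.412 to 0.530 without LPS and 0.111 to 0.271 with it, so the smallest listed values were higher in the untreated samples. The other interferon genes were listed at 0 or in few samples. *Ifng* was listed at 0.391, 0 and 0.815 with LPS, *Ifnk* at 0.781 in LPS replicate 1 and *Ifna2* at 0.389 in LPS replicate 2, all at 0 without LPS.

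Enzymes of the OAS family make oligoadenylates in the presence of double-stranded RNA, which activate RNase L, and some members have other antiviral roles. Of its 6 genes, 5 were higher by sign and their median log2 fold change was 0.96, or 0.51 with protein-coding sums. At an unadjusted p under 0.05, 3 were higher, and 0 with protein-coding sums. *Oas1a* (chromosome 5, 121031070 to 121046449) was at 6.13, 48.6 and 10.2 scaled TPM without LPS and at 30.0, 43.7 and 40.2 with it. Untreated replicate 2 stood as high as the LPS samples, and the log2 fold change of 1.28 ± 0.74 (SE) had an adjusted p of 0.440 (limma). Without that sample the change was 2.11 and passed the limits of the call. Leaving out any other single sample gave 0.71 to 1.44, short of the fold limit. *Oas1g* (chromosome 5, 121014205 to 121025676), its near copy, was at 1.82, 3.92 and 0.891 and then at 4.80, 9.37 and 4.52. Here the groups did not overlap, and the change of 1.22 ± 0.48 had an adjusted p of 0.273 (limma). The transcripts of *Oas1a* and *Oas1g* share a near-identical stretch of 1861 bases, so how reads were divided between them is uncertain.

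*Oas2*, which makes longer oligoadenylates, was at 4.45, 5.47 and 4.98 scaled TPM without LPS and at 8.65, 12.5 and 12.7 with it. *Oasl2*, an OAS-like gene, was at 24.3, 43.2 and 35.8 and then at 52.0, 55.3 and 75.9. Both had LPS samples all above the untreated ones. *Oasl1*, known to limit translation of *Irf7*, was at 25.1, 10.0 and 42.9 without LPS and at 45.5, 29.5 and 56.5 with it, with overlapping groups. *Oas3* (chromosome 5, 120891163 to 120915729), at 17.9, 21.7 and 26.6 and then at 14.2, 29.5 and 23.7, showed no shift. Its log2 fold change was -0.02 ± 0.37 with an adjusted p of 0.986 (limma), and the sign turned under quantile normalization (0.04). The OAS genes differed from most of the set in that LPS replicate 1, not replicate 2, was lowest in 4 of 6.

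ISG15 is joined to target proteins by an enzyme chain of UBA7 (activating), UBE2L6 (conjugating) and a ligase such as HERC6, and is removed by USP18, which also restrains the interferon receptor. Of these 6 genes, 5 were higher by sign and their median log2 fold change was 1.03, or 0.61 with protein-coding sums. At an unadjusted p under 0.05, 3 were higher and 1 lower, and with protein-coding sums 0 and 1. *Isg15* (chromosome 4, 156283883 to 156285303) was at 73.6, 139 and 330 scaled TPM without LPS and at 611, 383 and 700 with it. All LPS samples lay above all untreated ones, though untreated replicate 3 came close to LPS replicate 2. The log2 fold change was 1.86 ± 0.60 with an adjusted p of 0.187 (limma). Without untreated replicate 3 it was 2.43, which passes the limits of the call. With any other single sample left out it was 1.35 to 2.12 and did not pass both limits. With protein-coding sums it was 1.37.

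*Usp18* was at 5.58, 3.22 and 3.23 scaled TPM without LPS and at 12.5, 9.02 and 16.8 with it. *Ube2l6* was at 3.44, 1.45 and 1.69 and then at 4.67, 5.38 and 10.0, and *Trim25*, a ligase for both ubiquitin and ISG15, at 15.9, 18.9 and 9.10 and then at 26.5, 20.0 and 29.6. In these 3 genes the groups did not overlap. *Herc6*, the main ISG15 ligase of the mouse, was at 1.08, 9.14 and 1.94 and then at 4.46, 2.85 and 8.23, with overlapping groups.

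*Uba7* (chromosome 9, 107852704 to 107861262), which encodes the enzyme at the head of the chain and passes ISG15 on to UBE2L6, had the opposite sign. It was at 8.79, 7.67 and 13.7 scaled TPM without LPS and at 2.27, 1.74 and 3.30 with it, all LPS samples below all untreated ones. The log2 fold change was -1.67 ± 0.36 with an adjusted p of 0.079 (limma), short of the fold limit. With protein-coding sums it was -2.06, past both limits. The difference between *Uba7* and *Isg15* in their changes was not tested.

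**Figure D2:**
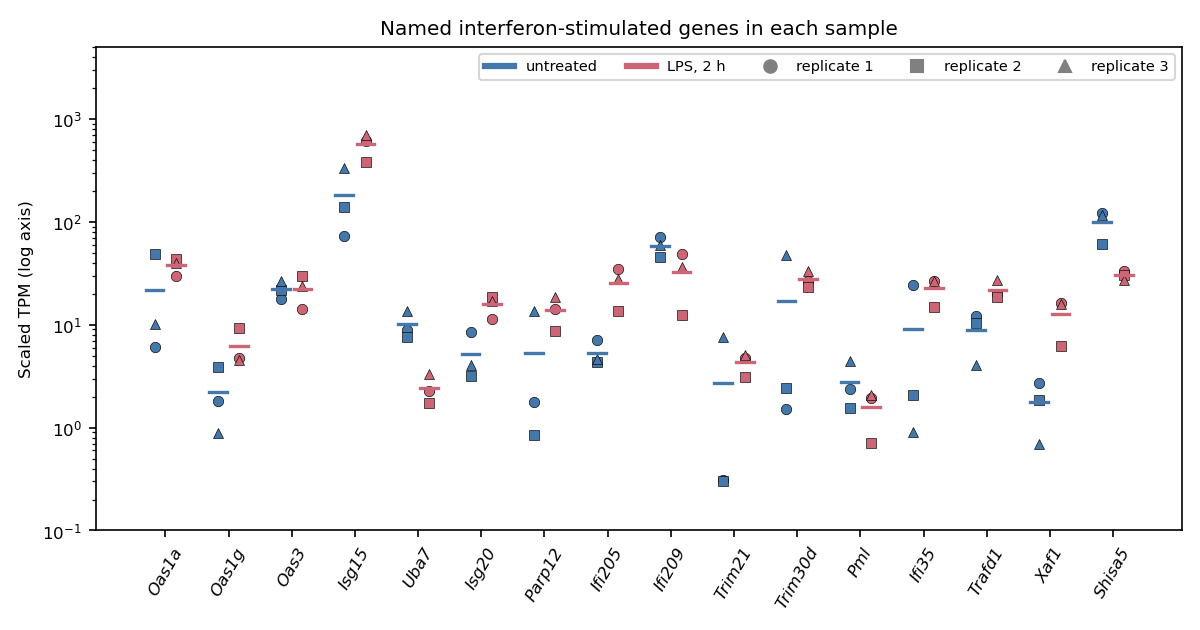
Scaled TPM (y axis, log scale) of 16 interferon-stimulated genes in each of the 6 samples. Blue symbols are untreated and red symbols LPS samples, the shape gives the replicate number and the horizontal lines are group means (n = 3). Untreated samples spread widely in *Trim21*, *Trim30d*, *Parp12* and *Ifi35*, where LPS samples lie close together. The 2 groups are separate in *Oas1g*, *Isg15*, *Uba7*, *Isg20*, *Ifi205*, *Trafd1*, *Xaf1* and *Shisa5*.

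The other antiviral effectors were all higher by sign, 10 of 10, with a median log2 fold change of 0.73, and 1 had an unadjusted p under 0.05. With protein-coding sums 9 of 10 were higher by sign, 0 of them at that limit, and the median was 0.29. *Isg20* (chromosome 7, 78562598 to 78570153), an exonuclease that degrades single-stranded RNA, was at 8.43, 3.17 and 4.10 scaled TPM without LPS and at 11.4, 18.6 and 17.2 with it. The LPS samples lay above all untreated ones, and the change of 1.49 ± 0.42 had an adjusted p of 0.141 (limma). *Parp12* (chromosome 6, 39063342 to 39095573), an ADP-ribosyltransferase, was at 1.79, 0.849 and 13.4 and then at 14.2, 8.72 and 18.7. Untreated replicate 3 lay within the LPS range. The change was 1.76 ± 0.82 with an adjusted p of 0.335 (limma), and without that sample it was 2.65, past both limits. Leaving out any other single sample gave 1.17 to 2.04, not past both limits.

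*Rsad2* encodes viperin, which makes a chain-terminating nucleotide from the product of its neighbour *Cmpk2*, a nucleotide kinase. *Rsad2* was at 105, 36.6 and 48.5 scaled TPM without LPS and at 84.7, 68.4 and 110 with it. *Cmpk2* was at 3.67, 0.908 and 7.17 and then at 8.78, 4.25 and 10.5. In both genes replicate 2 was lowest in either group and the groups overlapped. *Bst2*, the gene of tetherin, which holds budding virus at the membrane, was at 64.5, 8.73 and 9.44 and then at 35.2, 31.3 and 49.0. Here untreated replicate 1 stood above every LPS sample and the other untreated samples below. *Ddx60*, a helicase, was at 2.50, 2.28 and 1.64 and then at 2.58, 3.25 and 4.02, without overlap though the 2.50 and 2.58 nearly met. *Adar*, which edits adenosines in double-stranded RNA, was at 5.58, 11.8 and 3.83 and then at 10.4, 11.4 and 13.9. *Helz2*, a helicase and coactivator, was at 9.90, 4.69 and 11.9 and then at 14.9, 10.5 and 16.6. *Znfx1*, a sensor of viral RNA at mitochondria, was at 5.40, 10.9 and 7.20 and then at 10.3, 9.95 and 12.7, and *Rnf213*, a large ubiquitin ligase, at 63.5, 12.5 and 47.4 and then at 49.5, 20.9 and 39.0. The groups overlapped in each of these.

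The PYHIN genes lie together on chromosome 1 between 173393846 (*Ifi213*) and 173859456 (*Ifi205*) on GRCm39 and encode proteins that bind DNA or help to form inflammasomes. Of the 7 genes, 6 were lower by sign with LPS and 1, *Ifi205*, was higher. Their median log2 change was -0.23, where that of all 52 genes was 0.60. Under quantile normalization 5 were lower and 2 higher, and with protein-coding sums 6 were lower with a median of -0.70. None of the 6 lower ones had an unadjusted p under 0.05.

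*Ifi205* (chromosome 1, 173839549 to 173859456), a PYHIN gene of myeloid cells, was at 7.07, 4.32 and 4.60 scaled TPM without LPS and at 34.5, 13.6 and 27.8 with it. All LPS samples lay above all untreated ones. The log2 fold change was 1.99 ± 0.43 with an adjusted p of 0.082 (limma), a little under the fold limit of 2. It passed the call with a pseudocount of 0.1 (2.16), under quantile normalization (2.02), without untreated replicate 1 (2.17), without LPS replicate 2 (2.36) and without replicate 2 of both groups (2.25). With protein-coding sums it was 1.55. *Ifi209* (chromosome 1, 173458380 to 173475494) stood at the other end, at 70.8, 45.4 and 59.3 scaled TPM without LPS and at 49.1, 12.5 and 36.2 with it. The groups overlapped, and the change of -0.998 ± 0.54 had an adjusted p of 0.409 (limma).

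The other 5 PYHIN genes had overlapping groups. *Ifi211* was at 106, 27.6 and 57.2 scaled TPM without LPS and at 85.4, 22.5 and 57.7 with it. *Mndal* was at 17.5, 5.29 and 16.2 and then at 17.1, 4.93 and 12.9. In both genes the replicates differed from each other far more than the groups did. *Ifi203* was at 8.88, 3.54 and 9.31 and then at 8.10, 2.12 and 6.05, and *Ifi213* at 7.27, 2.91 and 8.84 and then at 4.53, 1.35 and 4.28. *Ifi207* was at 33.8, 38.6 and 26.4 and then at 31.8, 22.7 and 29.1.

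Replicate 2 was the lowest sample of its group in most PYHIN genes. LPS replicate 2 was the lowest LPS sample in 7 of 7, and untreated replicate 2 the lowest untreated sample in 6 of 7, with *Ifi207* the exception. Over all 52 genes LPS replicate 2 was lowest in 37 (71.2%), beside 36.8% of all genes tested and 45.6% of the protein-coding genes. Untreated replicate 2 was lowest in 28 of 52 (53.8%), beside 24.1% and 37.8%. B cell markers, summed, were lowest in the same 2 samples, at 281 and 262 against 726 to 1093 in the others, and neutrophil markers, summed, were highest. Their part in the levels of the PYHIN genes was not tested. Without replicate 2 of both groups, 2 PYHIN genes were higher and 5 lower by sign, 1 in each direction with an unadjusted p under 0.05. The transcripts of *Ifi205* and *Ifi211* share a near-identical stretch of 1110 bases, and *Mndal* shares such stretches with *Ifi203*, *Ifi205* and *Ifi211*, so the division of reads among these 4 genes is uncertain.

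**Figure D3:**
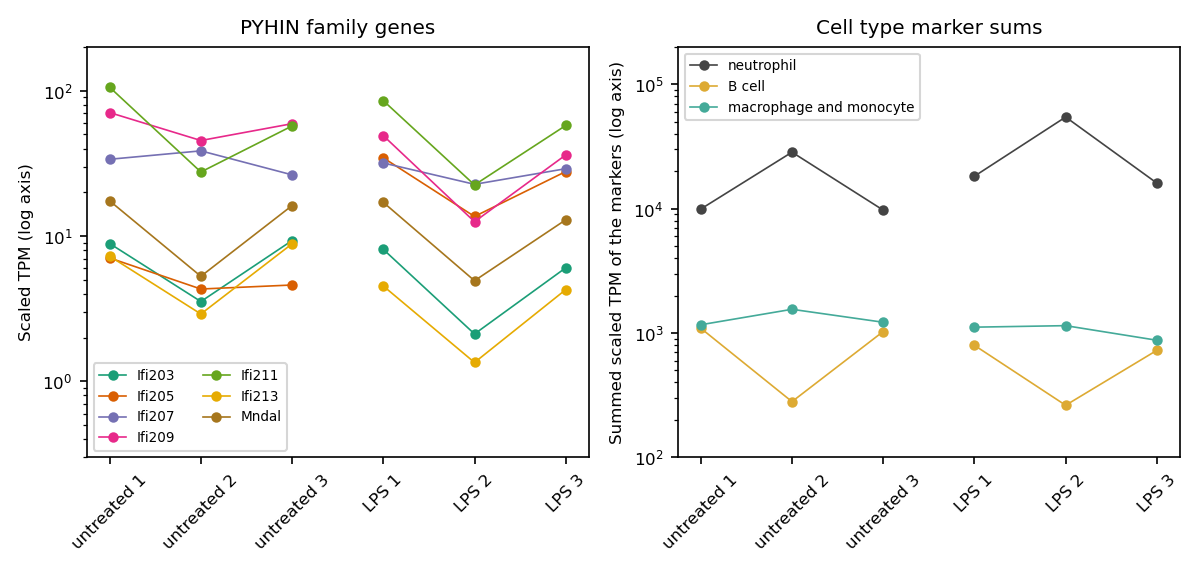
Left, scaled TPM (y axis, log scale) of the 7 PYHIN genes in each sample, and right, summed scaled TPM (y axis, log scale) of the neutrophil, B cell and macrophage and monocyte markers in the same samples. Lines join the values of 1 gene or list within a group and imply no order. The B cell sum and the PYHIN genes dip in replicate 2 of both groups, apart from *Ifi207* (highest in untreated replicate 2). In replicate 2 the neutrophil sum peaks, at 28504 and 54649. *Ifi205* (from 4.32 to 7.07 up to 13.6 to 34.5) is higher in all LPS samples.

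Of the TRIM and nuclear body genes, 3 of 6 were higher and 3 lower by sign, none with an unadjusted p under 0.05. Their median log2 fold change of 0.20 turned to -0.27 with protein-coding sums. *Trim30d* (chromosome 7, 104119221 to 104157107) was at 1.53, 2.40 and 47.3 scaled TPM without LPS and at 26.5, 23.4 and 33.4 with it. Untreated replicate 3 exceeded every LPS sample while the other untreated samples were far below. The change was 1.93 ± 1.13 with an adjusted p of 0.447 (limma), and 3.28, past both limits, when that sample was left out. With any other single sample left out it was 1.15 to 2.045, not past both limits. *Trim21* (chromosome 7, 102207128 to 102214704), a cytosolic receptor for antibody-coated virus, had the same shape, at 0.309, 0.301 and 7.55 and then at 4.73, 3.13 and 5.12. Its change was 1.10 ± 0.79 with an adjusted p of 0.551 (limma), and 2.01, past both limits, without untreated replicate 3. Leaving out any other single sample gave 0.65 to 1.28.

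*Trim30a*, the neighbour of *Trim30d* and known as a brake on TLR signalling, was at 29.2, 8.91 and 101.2 scaled TPM without LPS and at 43.4, 43.7 and 49.7 with it. It too was highest in untreated replicate 3. Its transcripts share 414 nearly identical bases with *Trim30d* and others with 59 genes in all, so its level is uncertain. *Pml* (chromosome 9, 58124456 to 58157169), the scaffold of nuclear bodies, was at 2.37, 1.56 and 4.44 and then at 1.93, 0.715 and 2.06, a change of -0.54 ± 0.43 with an adjusted p of 0.551 (limma). *Sp100*, another part of these bodies, was at 19.3, 12.3 and 14.7 and then at 13.5, 12.4 and 14.5, and its level is uncertain too, with stretches nearly identical to parts of 214 genes. *Sp140*, a chromatin reader, was at 60.7, 26.2 and 21.8 and then at 34.9, 22.3 and 31.3. In the last 3 genes the groups overlapped.

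All 4 regulators were higher by sign, 1 with an unadjusted p under 0.05. With protein-coding sums 3 of 4 were higher, 0 of them at that limit. *Trafd1* (chromosome 5, 121507840 to 121524089), which dampens TLR and RIG-I signalling, was at 12.2, 10.3 and 4.03 scaled TPM without LPS and at 20.0, 18.7 and 26.9 with it. The groups did not overlap, and the change of 1.31 ± 0.45 had an adjusted p of 0.211 (limma). *Ifi35* (chromosome 11, 101339221 to 101352693), a partner of NMI, was at 24.5, 2.06 and 0.902 and then at 26.4, 14.8 and 26.4. Untreated replicate 1 lay at the level of the LPS samples. The change of 2.11 ± 0.99 passed the fold limit but not the p limit, with an adjusted p of 0.343 (limma), and was 3.24, past both limits, without untreated replicate 1. With any other single sample left out it was 1.37 to 2.37, not past both limits. *Nmi* itself was at 7.20, 12.8 and 0.303 and then at 6.98, 3.89 and 8.97. *Nlrc5*, the activator of MHC class I genes, was at 9.38, 0.489 and 8.74 and then at 6.52, 2.55 and 7.97. Both were scattered among untreated samples, with no separation of the groups.

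Among the other 12 genes, 8 were higher and 4 lower by sign, and 6 and 6 with protein-coding sums. *Xaf1* (chromosome 11, 72192397 to 72204559), which promotes cell death by binding the caspase inhibitor XIAP, was at 2.74, 1.86 and 0.686 scaled TPM without LPS and at 16.2, 6.23 and 16.0 with it. All LPS samples lay above all untreated ones. It rose by a log2 fold change of 2.29 ± 0.51 with an adjusted p of 0.085 (limma). The call was lost with a pseudocount of 5 (1.35), with protein-coding sums (1.94) and without untreated replicate 2 (2.35), untreated replicate 3 (1.97), LPS replicate 1 (2.08) or LPS replicate 3 (2.09). Stretches of *Xaf1* transcripts are nearly identical to parts of 109 other genes, so its level is uncertain. Of the 52 genes, 21 have at least 1 such stretch in common with another gene.

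*Shisa5* (chromosome 9, 108867633 to 108887029), which encodes a membrane protein of the endoplasmic reticulum linked to cell death, was the other gene with an unadjusted p under 0.05 on the lower side. It was at 123, 60.3 and 117 scaled TPM without LPS and at 33.0, 30.2 and 27.2 with it, all LPS samples below all untreated ones. The log2 fold change was -1.63 ± 0.37 with an adjusted p of 0.087 (limma). With protein-coding sums it was -2.12, past both limits. *Ifi30*, a lysosomal thiol reductase of antigen processing, was at 151, 113 and 224 and then at 158, 48.8 and 158. *Plac8* was at 99.7, 19.0 and 34.7 and then at 25.3, 25.1 and 26.5. *Ifi27l2a* was at 104, 36.7 and 170 and then at 130, 157 and 155. In each of these 3 genes the groups overlapped.

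*Lgals9* and *Lgals3bp* encode galectin-9 and a galectin-3 binding protein. *Lgals9* was at 48.8, 28.8 and 4.69 scaled TPM without LPS and at 22.4, 27.0 and 21.6 with it, so all LPS samples lay between the untreated ones. *Ogfr* was at 20.3, 27.7 and 74.1 and then at 49.4, 48.0 and 66.6, and *Tdrd7* at 3.38, 0.665 and 8.08 and then at 5.00, 6.83 and 7.76, with the same nesting. *Ifi27*, which encodes a small mitochondrial protein, was at 4.82, 8.56 and 11.1 and then at 7.74, 13.7 and 13.2. *Lgals3bp* was at 25.4, 5.83 and 1.49 and then at 10.2, 3.13 and 7.32, and *Tor3a*, of the torsin family, at 13.8, 1.84 and 4.17 and then at 8.55, 8.10 and 9.60. None of these genes separated the groups, and neither did *Ifi44*, at 0.0492, 0.824 and 0.0192 and then at 0.326, 0.166 and 0.364.

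A wider spread without LPS, with or without such nesting, was common. The untreated samples of a gene varied more than the LPS samples in 40 of 52 genes (76.9%), with a median SD of 0.73 against 0.35 on the log2 scale, and the same held for 82.8% of the protein-coding genes. The highest untreated value was at least 10 times the lowest in 11 genes, among them *Trim30d*, *Trim21*, *Parp12*, *Ifi35*, *Nmi* and *Nlrc5*, and in 0 of the 51 genes without *Ifnb1* did the LPS samples spread that far. At a ratio of 5 it was 18 genes untreated and 0 of 51 with LPS. The shares over all genes were not counted for either ratio. *Ifnb1*, with a value of 0 in LPS replicate 2, has no such ratio. The high untreated sample was not the same throughout, being replicate 3 in *Trim21*, *Trim30d* and *Parp12*, replicate 1 in *Ifi35* and replicate 2 in *Oas1a*. Replicate 3 of both groups also had the highest erythroid sums, and their part in these levels was not tested. Leaving out untreated replicate 3, the LPS samples lay above the untreated ones in 22 of the 52 genes instead of 12. Leaving out a sample can only keep or raise this count, and the share over all genes was not counted for that setting.

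The median change was nearly the same for genes with and without the ISRE core in the promoter, a comparison given without a test. The 20 genes with the core had a median log2 fold change of 0.58, 13 were higher by sign, and 4 had every LPS value above the untreated range. The 26 genes without it had a median of 0.61, 18 were higher and 6 were separate. In the 6 genes with no promoter in the set the median was 0.72. *Isg15*, with 3 overlapping cores in the stretch shown above, was among those with separate groups, whereas *Oas3*, *Ifi207* and *Ifi213* have the core and had overlapping groups.

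The interferon pathway around these genes was read from a further list of 49 genes that are not in the set. Of these, 36 were in the table and 30 could be tested, while 6, all interferon genes, were listed at 0 in every sample. Of the 30, 5 were called higher and 0 lower, beside 1.69% and 1.31% of all genes tested and 4.91% and 0.75% of the protein-coding genes. At an adjusted p under 0.05 (limma) 3 were higher and 0 lower, beside 0.894% and 0.946%, and 2.5% and 0.716%. At an unadjusted p under 0.05 the counts were 9 and 0, beside 10.3% and 6.66%, and 20.5% and 7.61%. By sign 23 of 30 were higher, beside 52.9% and 64.7%. The list was chosen with earlier results of these data known, so these counts are not independent of the outcome.

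Kinases between TLR4 and IRF3 were among the genes called higher. *Tbk1*, the kinase of IRF3, was at 8.26, 4.37 and 6.78 scaled TPM without LPS and at 46.6, 50.9 and 46.5 with it, a log2 fold change of 2.75 ± 0.31 with an adjusted p of 0.021 (limma). *Ikbke*, its close relative, was at 18.3, 42.5 and 9.89 and then at 159, 412 and 219, a change of 3.55 ± 0.62 with an adjusted p of 0.053. *Irf5*, a transcription factor downstream of TLRs, was at 1.02, 1.87 and 3.60 and then at 25.6, 23.3 and 36.8, a change of 3.28 ± 0.41 with an adjusted p of 0.026. In these 3 genes the groups lay far apart. *Ifih1*, the RNA sensor MDA5 and itself interferon-stimulated, was at 1.88, 3.84 and 1.69 and then at 15.3, 10.9 and 16.1, a change of 2.15 ± 0.36 with an adjusted p of 0.051. *Tnfaip3*, the brake A20, was at 27.7, 9.49 and 7.81 and then at 142, 194 and 153, a change of 3.56 ± 0.51 with an adjusted p of 0.035. The call of *Ifih1* was lost with a pseudocount of 5 (1.35), with protein-coding sums (1.77) and without untreated replicate 3 (1.99), and that of *Tnfaip3* without replicate 2 of both groups (3.22).

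Below the fold limit, *Traf3*, the ubiquitin ligase that carries the signal to TBK1, was at 2.78, 3.87 and 2.12 scaled TPM and then at 10.8, 14.1 and 13.9, a change of 1.84, which passed the limits with a pseudocount of 0.1 (2.14) and without untreated replicate 2 (2.01). *Tank*, its partner, was at 1.79, 3.31 and 4.01 and then at 12.4, 8.72 and 12.4, a change of 1.62. *Tyk2*, the kinase of the interferon receptor, was at 3.66, 5.74 and 1.13 and then at 9.09, 20.8 and 15.0, a change of 1.90 with an adjusted p of 0.143 (limma), and 2.27, past both limits, without untreated replicate 2. *Tyk2* passed under no other alternative. The groups were separate in all 3 of these. *Socs3*, a feedback inhibitor of cytokine receptors, was at 8.06, 48.0 and 25.5 and then at 31.4, 207 and 58.7, a change of 1.70 ± 0.89 with an adjusted p of 0.394 (limma) and overlapping groups. Of the 6 genes listed on the route from LPS to interferon-β, 5 were higher and 4 were so at an unadjusted p under 0.05, beside 20.5% of the protein-coding genes. Their median was 1.73, or 1.33 with protein-coding sums. *Irf3*, on the same route but listed with the transcription factors, changed by -0.09. The median of the 52 genes of the set was 0.60, or 0.18 with protein-coding sums, and the difference between the lists was not tested.

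**Figure D4:**
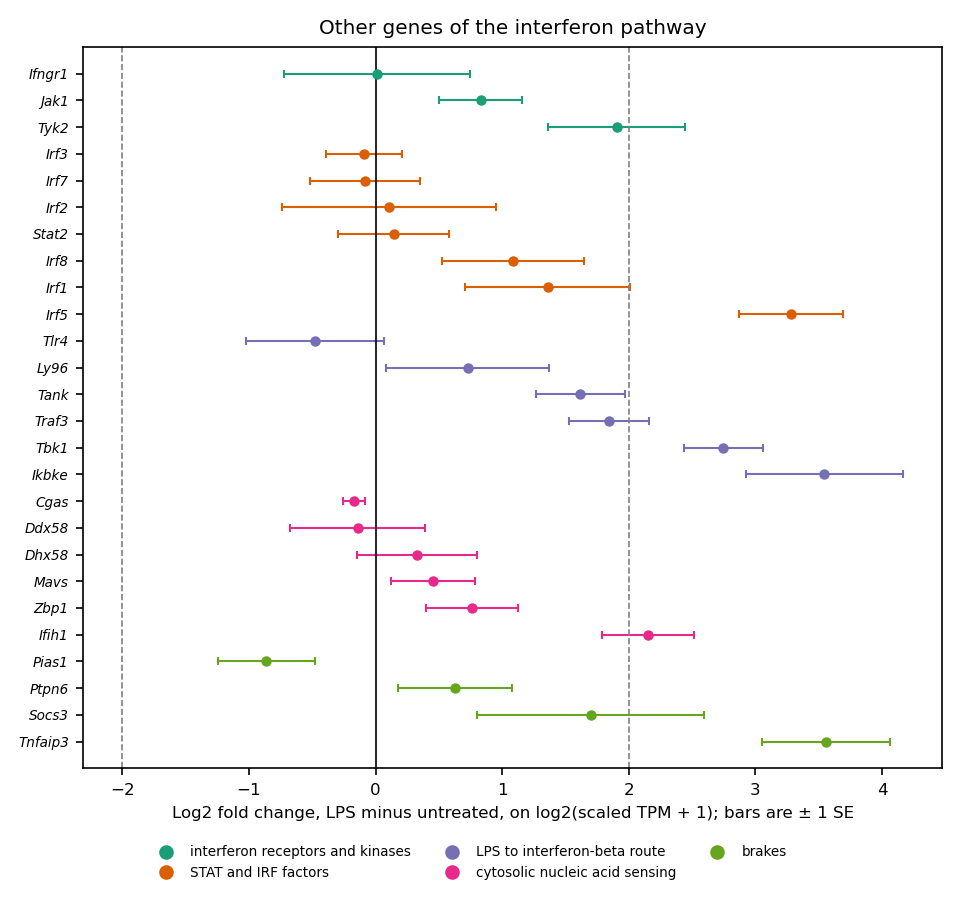
Log2 fold change of LPS against untreated samples (x axis, on log2(scaled TPM + 1), 3 samples per group) for 26 other genes of the interferon pathway, coloured by place in the pathway. Points are fitted changes, bars are ± 1 SE, dashed lines mark a change of 2 in either direction, and 3 interferon genes listed at 0 without LPS are left out. *Ikbke*, *Tnfaip3*, *Irf5*, *Tbk1* and *Ifih1* lie beyond 2, while *Irf3*, *Irf7* and *Stat2* lie near 0.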

How the data were processed

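RNA was sequenced from 3 untreated and 3 LPS samples (2 h), grouped by sample title and treatment label. The authors' notes name fastp, STAR, kallisto and both GRCm39 and mm10, without saying which step used which build, and the study's methods GRCm39 and edgeR normalization. The annotation release was not given in the sources used here. The labels and the study's design text name different sequencers. The authors deposited 1 table named as normalized counts, whose values behave as TPM averaged over transcripts and divided by 1 factor per sample, so no count test was run. Depth is unknown, and no interval for counting error can be given.

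All 23049 genes with a value above 0 were tested on log2(scaled TPM + 1) with limma 3.58.1 in R 4.3.3 (mean-variance trend, two-sided, 6 samples, no covariate) and Benjamini-Hochberg adjustment over all of them. Fold changes on this scale understate the change of low genes. The members and lists were chosen with earlier results of these data known. Fold changes are given for *Ifnb1*, members called (by p with fold, or by adjusted p), the 2 members of each role with the largest change in either direction and its largest decrease, and, of the pathway list, genes called and up to 4 more. Positions are from GENCODE M39. Near-identical stretches were found with blastn 2.17.0 (95% identity over 150 bases, same strand). The pipeline was tested on simulated data. Alternatives were pseudocounts of 0.1 and 5, a mean of at least 1, quantile normalization, median centring, protein-coding sums, no trend, the replicate number as a block, leaving out each sample and other limits. The values without replicate 2 of both groups and at an unadjusted p under 0.05 were added after seeing the data. The values of 1 gene of the pathway list are not reported here.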

Additional observations from a re-analysis of the deposited data

How the results depend on the processing

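Depth is unknown and each group has 3 samples, so single genes rest on the spread between samples, which was wide without LPS. Of 254 values for the named genes of the set under 15 alternatives, 231 kept their direction and their side of the limits, 14 passed the limits where the reported value did not, 6 no longer passed, and 3 turned sign. All 3 belong to *Oas3*, at 0.041 under quantile normalization and from -0.238 to 0.27 when samples were left out.

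The count called higher, 1 of 52, was 2 with a pseudocount of 0.1, 0 with a pseudocount of 5, 2 under quantile normalization, 0 with protein-coding sums, 2 without replicate 2 of both groups and 0 to 4 when each sample was left out in turn (4 without untreated replicate 3, 3 without untreated replicate 1, 2 without LPS replicate 2 and 0 without LPS replicate 1 or 3). It was 0 at an adjusted p under 0.05 (limma), 3 at an unadjusted p under 0.01 with a fold limit of 1 and 10 at an unadjusted p under 0.05. The count called lower, 0, was 1 with a pseudocount of 0.1, 2 with protein-coding sums, 2 with a fold limit of 1 and 2 at an unadjusted p under 0.05. Higher at an adjusted p under 0.05, 0 genes as reported, were 2 among genes with a mean of at least 1, 1 without a trend and 0 to 1 with single samples left out. Lower were 1, 1 and 0 to 1. The median of 0.60 was 0.39 with a pseudocount of 5 and 0.18 with protein-coding sums. Genes whose groups were separate with LPS on the higher side, 12 as reported, were 5 with protein-coding sums, 23 without replicate 2 of both groups and 12 to 22 with single samples left out (22 without untreated replicate 3). Leaving out samples can only keep or raise this count. For the counts in this paragraph, shares over all genes were counted only in the main fit, at the limits given above. The other counts of this paragraph have no such share beside them, so whether they move with all genes was not tested. Dividing by the protein-coding sum rescales every sample by construction, untreated ones included, since that sum differs between samples and between the groups. The sum depends on the protein-coding share and on the total of the deposited values. That total was 603599 to 713384 without LPS and 404675 to 465904 with it. For the other alternatives the cause was not tested.

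Samples of the same replicate number deviated together only weakly, with correlations of 0.102, 0.220 and 0.0925 over 9403 genes. The sample titles state no pairing, and the numbers were not taken to pair samples in the main fit. Each sample nevertheless correlated best with its own number. The neutrophil, B cell and erythroid sums also had their extremes in the same number in both groups, so pairing of the samples is uncertain. With the replicate number as a block, 1 gene of the set was called higher and 0 were called lower. By limma, 0 had an adjusted p under 0.05 in either direction, and 8 were higher and 2 lower at an unadjusted p under 0.05. The shares over all genes were not counted with the block. In the pathway list 5 were called higher and 0 lower. Single genes moved either way. The unadjusted p of *Socs3* was 0.106 without the block and 0.0051 with it, where its adjusted p was 0.152 (limma). That of *Tank* was 0.0036 and then 0.012 (limma).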
